A study of Mus musculus with 63 samples.

Results

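Voltage-gated calcium channels open when the membrane depolarizes and let calcium into the cell, and the alpha-1 subunit of each channel forms its pore and its voltage sensor. The subunits form 3 subfamilies. Cav1 (L-type) channels carry long-lasting currents at strong depolarization and couple them to contraction, hormone release or, in neurons, transcription. Cav2 (P/Q-, N- and R-type) channels sit at presynaptic terminals and in dendrites and trigger transmitter release. Cav3 (T-type) channels open near the resting potential and carry brief currents that feed burst firing. The alpha-1 genes were found by their symbols, and all 10 of 10 were present among the 20183 genes of the expression table. The Cav1 genes are Cacna1s, Cacna1c, Cacna1d and Cacna1f, the Cav2 genes Cacna1a, Cacna1b and Cacna1e, and the Cav3 genes Cacna1g, Cacna1h and Cacna1i.

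The cells were 46 light-sensitive (LS) and 17 non-light-sensitive (NS) neurons, drawn into patch pipettes in vivo from layer 2/3 of V1, the primary visual cortex, of wild type C57BL/6 mice aged 70 days. An LS neuron answered most of the repeated light stimuli with a calcium signal and an NS neuron almost none, and no group carried an allele or a drug. All mice were under light anesthesia, with the cells loaded with a calcium dye. Each cell was 1 Smart-seq2 library, a full-length cDNA method, measured in FPKM (fragments per length of exon and depth of library). The stated quality filters of the study, rebuilt here from the deposited values, left 35 LS and 12 NS cells, fewer LS cells than the study itself retained, so the set is not the one the study analysed. The rebuilt mitochondrial limit removed no cell, unlike in the study, so LS or NS cells that the study discarded may be among those kept. With a filter marker counted only from 1 FPKM on, 37 LS and 12 NS cells were left. All values below are over these 47 cells unless stated otherwise.

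No label ties a cell to a mouse, so each group counts as 1 sample and was not tested against the other. Every SD is the spread between cells, and the exact binomial and Poisson intervals cover counting error only. A gene was called higher in a group where the mean FPKM differed by at least 2-fold and the higher mean reached 1 FPKM. Cells were also classed by markers. A cell with more Slc17a7 and Neurod2 (the vesicular glutamate transporter and a transcription factor of excitatory neurons) than Gad1 and Gad2 (the enzymes of GABA synthesis) was called glutamate-marked, and the reverse GABA-marked. The LS cells held 30 glutamate-marked, 4 GABA-marked and 1 unmarked cell, and the NS cells held 2, 6 and 4, so light response and marker class are unevenly crossed.

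The NS libraries stood apart from the LS libraries. Reads on the listed genes had a median of 313822 per NS cell against 870974 per LS cell. The level of 1031 odorant, vomeronasal and taste receptor genes, which cortical neurons do not use, was taken as a percent of the level that an even spread of reads over all exons would give. This receptor-gene level had a median of 46% in NS cells and 2.75% in LS cells, and it was at least 10% in 9 of 12 NS cells and 4 of 35 LS cells. Of 4 general neuron markers (Snap25, Syt1, Rbfox3, Map2), the summed level ran from 0 to 1056 FPKM in LS cells with a median of 531.1, and from 0 to 1182 FPKM in NS cells with a median of 10.7. The labelled cell type was therefore weakly marked in many NS cells. Markers of other brain cells were present in both groups, and their summed FPKM had a median over LS and NS libraries of 65.002 and 50.9 for 6 astrocyte genes, of 8.53 and 1.68 for 5 oligodendrocyte genes, of 83.2 and 12.4 for 4 microglia genes, and of 0 in both for 3 endothelial genes. The means of these sums over LS and NS cells were 144.3 and 232.4 FPKM for astrocyte and 13.9 and 112.2 FPKM for oligodendrocyte genes. They were 234.4 and 425.1 FPKM for microglia and 21.6 and 4.24 FPKM for endothelial genes. Olig1 was at 0 in all LS cells, and Olig2 and Cldn5 were at 0 in all NS cells. The part of depth, of these markers and of the receptor-gene level in the differences below was not tested.

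In the GENCODE annotation of GRCm38 the members lie on 9 chromosomes and span from 28.1 kb (Cacna1f, chrX:7607083-7635196) to 609.2 kb (Cacna1c, chr6:118587240-119196418). Cacna1e lies at chr1:154390731-154884501 and Cacna1b at chr2:24603887-24763152, both on the minus strand. The 7 genes with a promoter in the RefSeq table (GRCm38.p6) differ widely in CG content. The windows of Cacna1b and Cacna1e are shown because these genes had the highest mean levels in GABA-marked and glutamate-marked LS cells, and those of Cacna1i and Cacna1s because their mean levels differed most between LS and NS cells. Each line gives the last 100 bases before the annotated start, with CG pairs in capitals. They lie on the minus strand at chr2:24763153-24763252 (Cacna1b) and chr1:154725921-154726020 (Cacna1e), and on the plus strand at chr15:80287138-80287237 (Cacna1i) and chr1:136052711-136052810 (Cacna1s). The Cacna1e window lies far inside the GENCODE span of the gene, whose outermost start is at chr1:154884501, so it may not be the main promoter.
Cacna1b: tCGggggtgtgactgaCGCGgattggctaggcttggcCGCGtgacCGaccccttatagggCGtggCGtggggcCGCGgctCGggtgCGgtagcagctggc
Cacna1e: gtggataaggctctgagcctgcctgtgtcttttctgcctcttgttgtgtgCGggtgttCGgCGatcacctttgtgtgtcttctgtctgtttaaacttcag
Cacna1i: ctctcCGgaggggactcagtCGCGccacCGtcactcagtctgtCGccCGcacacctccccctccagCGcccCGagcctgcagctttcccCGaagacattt
Cacna1s: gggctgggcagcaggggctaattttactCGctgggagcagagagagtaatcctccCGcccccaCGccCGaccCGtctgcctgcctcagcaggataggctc

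Over windows of 300 bases (250 before and 50 after the start), Cacna1b held 35 CG pairs, Cacna1i 23, Cacna1e 11 and Cacna1s 9, against a median of 7 over 32851 promoters. At least as many CG pairs as in Cacna1b were found in 6.95% of all promoters, and at least as many as in Cacna1e in 41.4%. For Cacna1e these values describe a start inside the gene, and its outermost start was not examined. Cacna1c has 3 annotated starts with 57, 7 and 3 CG pairs and Cacna1d has 2 with 63 and 4. The GC box GGGCGG, on either strand, occurred in the windows of Cacna1b, Cacna1f and Cacna1s and in the CG-richest window of Cacna1c and of Cacna1d, not in those of Cacna1e and Cacna1i, and in 35.7% of all promoters. The FPKM values do not separate the starts of a gene.

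In the glutamate-marked LS cells the R-type gene Cacna1e was the highest member by mean FPKM. The order of mean levels was Cacna1e 24.9, Cacna1b 14.7, Cacna1d 9.56, Cacna1g 9.13, Cacna1c 8.69, Cacna1a 5.28, Cacna1h 3.42, Cacna1i 2.21, Cacna1s 0.734 and Cacna1f 0.443 FPKM over 30 cells. No neighbours in this order differed by more than the SD between cells of the higher one. Within single cells, Cacna1e exceeded Cacna1b in 20 of 30 cells, Cacna1a in 26 and Cacna1c in 25. Cacna1e was the leading member in 12 of 30 cells, while Cacna1b and Cacna1g led in 6 each.

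**Figure D1:**
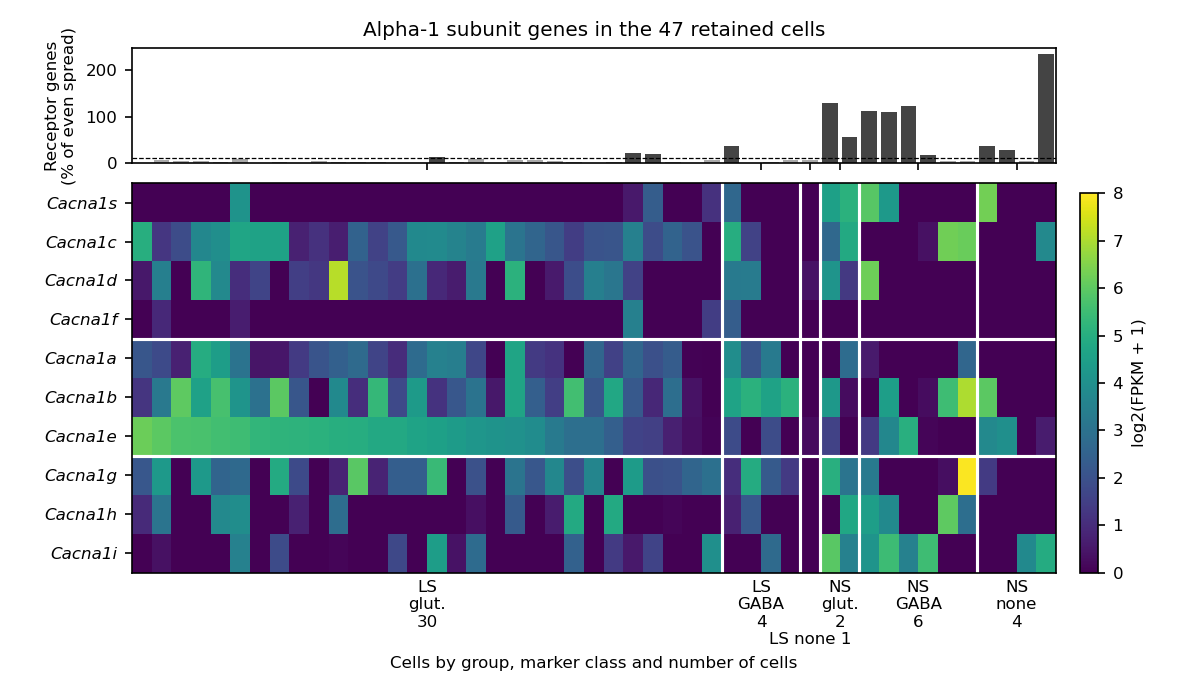
Each column is 1 of the 47 retained cells, ordered by group and marker class (glut., glutamate-marked; none, no marker), with glutamate-marked LS cells sorted by Cacna1e. Colors give log2(FPKM + 1) of each alpha-1 gene, white lines part Cav1, Cav2 and Cav3 from top to bottom, and bars give the receptor-gene level in percent with a dashed line at 10%. Cacna1e has a read in every LS glutamate-marked column but falls to 0.0462 FPKM at the end of that block. The NS columns are patchy, mostly under tall bars.

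Among the Cav2 genes, Cacna1e was called higher in glutamate-marked than in GABA-marked LS cells, whereas Cacna1b and Cacna1a were called in neither class. Cacna1e ran from 0.0462 to 72.9 FPKM with a median of 23.04 in the 30 glutamate-marked LS cells, every one of which had a read. It was 2.57, 0, 2.64 and 0 FPKM in the 4 GABA-marked LS cells LS_9, LS_14, LS_15 and LS_39. Of the glutamate-marked cells, 25 of 30 lay above the highest GABA-marked cell. The mean was 24.9 ± 19.6 against 1.30 ± 1.51 FPKM, a log2 ratio of 4.26 that stayed between 3.84 and 4.86 as each cell was left out in turn. The summed reads were 23726 and 137, a pooled log2 ratio of 4.44 with a counting interval of 4.20 to 4.69.

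Cacna1b, the N-type subunit of presynaptic terminals, was at 23.9, 33.9, 23.2 and 33.6 FPKM in the same 4 GABA-marked cells. In glutamate-marked LS cells it ran from 0 to 63.6 FPKM with a median of 5.36, and 23 of 30 of them lay below the lowest GABA-marked cell while 5 lay above the highest. The GABA-marked cells were thus narrowly grouped inside a wide glutamate-marked range. The mean was 14.7 ± 19.1 against 28.6 ± 5.86 FPKM, a log2 ratio of -0.96 that did not reach 2-fold and went to -2.42 with medians. Cacna1b exceeded Cacna1e in 4 of 4 GABA-marked cells, and it was the leading member in 3 of them, with Cacna1c leading in the fourth.

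**Figure D2:**
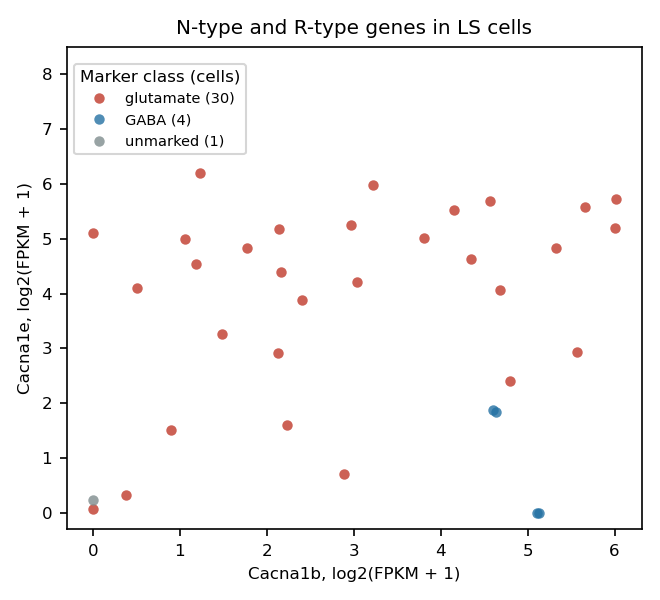
Each point is 1 of the 35 LS cells, with log2(FPKM + 1) of the N-type gene Cacna1b on the x axis and of the R-type gene Cacna1e on the y axis, colored by marker class. The 4 GABA-marked cells sit together at Cacna1b levels of 23.2 to 33.9 FPKM and Cacna1e levels of at most 2.64 FPKM, whereas the 30 glutamate-marked cells spread over both axes.

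Cacna1a, the P/Q-type subunit of most fast central synapses, overlapped between the classes. It ran from 0 to 30.1 FPKM with a median of 2.64 in glutamate-marked LS cells, and was 14.3, 3.22, 8.78 and 0 FPKM in the GABA-marked cells, inside that range. The log2 ratio of the means was -0.32 and turned to 0.40 without LS_9. All 3 Cav2 genes had reads in 26 of 30 glutamate-marked and 2 of 4 GABA-marked LS cells.

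Compared with NS cells, LS cells were called higher in Cacna1a and Cacna1e. Cacna1a ran from 0 to 30.1 FPKM with a median of 2.84 in LS cells and from 0 to 6.13 FPKM with a median of 0 in NS cells. It had a read in 30 of 35 LS cells (85.7%, interval 69.7 to 95.2%) and in 3 of 12 NS cells (25%, interval 5.49 to 57.2%). Thinned to 200000 reads per cell, with 4 shallower NS cells left out, the expected shares were 80.6% of 35 LS and 25% of 8 NS cells. The means were 5.28 ± 7.12 and 0.991 ± 2.21 FPKM, a log2 ratio of 2.41. That ratio turned to -0.85 over all 63 cells, where NS_3, a cell removed by the filters, had 108.2 FPKM of Cacna1a and no read of any other alpha-1 gene.

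Cacna1e had a mean of 21.5 ± 19.96 over LS and 6.31 ± 9.90 FPKM over NS neurons, a log2 ratio of 1.77. Its LS values ran from 0 to 72.9 FPKM with a median of 17.4, and its NS values from 0 to 31.97 FPKM with a median of 1.05. The ranges overlapped, with 10 of 35 LS cells above the highest NS cell and 1 of 12 NS cells above the LS median. In GABA-marked cells the direction was the other way, with 1.30 FPKM over 4 LS and 7.61 ± 12.8 FPKM over 6 NS neurons, and 70.0% of that NS sum came from NS_11 alone. All 567 NS reads of Cacna1e lay in cells with a receptor-gene level of at least 10%, and the 3 NS cells below that level had none.

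Cacna1b differed in opposite ways by mean and by median. Its NS values ran from 0 to 127.9 FPKM with a median of 0.197, and its LS values from 0 to 63.6 FPKM with a median of 6.85. The means were 15.9 ± 18.5 over LS and 22.9 ± 38.96 FPKM over NS neurons, a log2 ratio of -0.53 that became 0.25 without NS_16, the cell with the highest value. Reads were present in 91.4% of 35 LS and 58.3% of 12 NS cells (intervals 76.9 to 98.2% and 27.7 to 84.8%). Thinned, the expected shares were 88.6% and 48.5%. NS_16 was classed as GABA-marked by Gad1 at 51.1 and Gad2 at 324.0 FPKM, but it also had 28.8 FPKM of Slc17a7. With Neurod2 at 0 it passed the filter on mixed neuron markers.

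**Figure D3:**
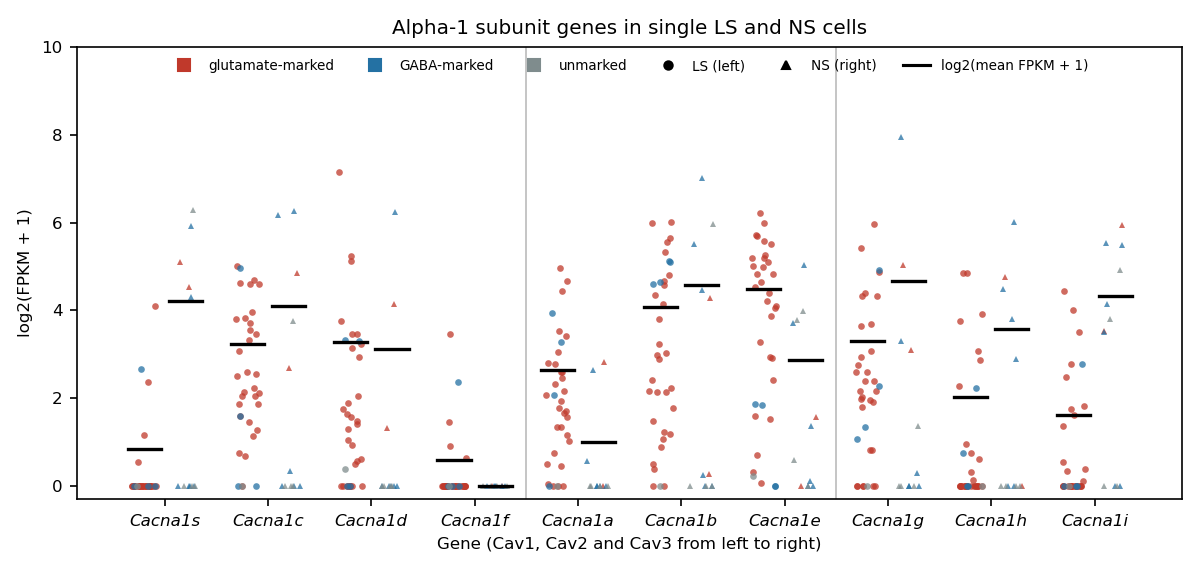
Every point is 1 cell, on a scale of log2(FPKM + 1), with LS cells as circles on the left and NS cells as triangles on the right of each gene, colored by marker class, and a bar at log2(mean FPKM + 1). Many NS cells lie at 0. Above all LS cells lie 1 NS cell each for Cacna1b, Cacna1g and Cacna1h, 2 for Cacna1c, 4 for Cacna1i and 5 for Cacna1s.

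Among the Cav1 genes, Cacna1c, the main L-type subunit of brain and heart, had a read in 29 of 30 glutamate-marked LS cells, where it ran from 0 to 31.2 FPKM with a median of 4.75. In the GABA-marked LS cells it was 30.5, 1.998, 0 and 0 FPKM. The high value belongs to LS_9, the GABA-marked LS cell with the highest receptor-gene level (36.2%). The log2 ratio of glutamate-marked to GABA-marked means was 0.10, and 3.70 without LS_9. In NS cells Cacna1c ran from 0 to 75.8 FPKM with a median of 0.135, and 6 of 12 NS cells had no read. NS_13 and NS_16, both GABA-marked, held the values above the LS range (75.8 and 71.0 FPKM). The means were 8.37 ± 9.27 over LS and 16.1 ± 28.04 FPKM over NS neurons, a log2 ratio of -0.94 that reached -1.07 without NS_2 and -0.35 without NS_13. The medians went the other way, at 3.66 FPKM over LS and 0.135 FPKM over NS neurons. Cacna1c had a read in 31 of 35 LS cells. Thinned, the expected shares of cells with a read were 88.4% of LS and 59.8% of NS cells.

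Cacna1d, the L-type subunit that opens at lower voltages and paces heart and neurons, was carried by single cells. In glutamate-marked LS cells it ran from 0 to 140.2 FPKM with a median of 1.72, and LS_22 alone held 48.9% of the sum. It was 8.82, 8.96, 0 and 0 FPKM in the GABA-marked LS cells. The log2 ratio of 1.11 between these classes passed 2-fold but fell to 0.19 without LS_22, and with medians it was -1.36. In NS cells 3 of 12 had a read, and NS_6 held 80.3% of the sum with 74.3 FPKM. The means of 8.71 ± 24.4 over LS and 7.72 ± 21.5 FPKM over NS neurons gave a log2 ratio of 0.18, which moved from -0.67 without LS_22 to 2.39 without NS_6.

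Cacna1f and Cacna1s are the Cav1 genes known from other tissues, the retina and skeletal muscle. Cacna1f, the L-type subunit of photoreceptor terminals, had a read in 5 of 35 LS cells and reached 10.1 FPKM in LS_4. It had a read in 0 of 12 NS cells, which allows a share of up to 26.5% of such cells with a read and sets no limit on cells that express it. Of the 103 LS reads of Cacna1f, 74.8% lay in the 4 LS cells with a receptor-gene level of at least 10%.

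Cacna1s, the voltage sensor of contraction in skeletal muscle, was called higher in NS cells. It was at 77.5, 59.3, 18.7, 22.3 and 33.3 FPKM in NS_2, NS_6, NS_7, NS_8 and NS_9, and at 0 in the other 7 NS cells. In LS cells it had a read in 5 of 35 and reached 16.2 FPKM in LS_28. All 5 NS cells with a read lay above every LS cell. The means were 0.783 ± 2.91 over LS and 17.6 ± 26.6 FPKM over NS neurons, a log2 ratio of -4.49, from 105 and 346 reads. The 5 NS cells had receptor-gene levels from 36.2 to 129.8%, and none of the 3 NS cells under 10% had a read. Muscle markers (Acta1, Ckm, Myh4, Ryr1) summed to 0 to 142.9 FPKM per NS cell with Acta1 at 0, and to 0 to 143.1 FPKM per LS cell. The exons of Cacna1s share 1309 bases with the antisense gene Gm37759, and the library type does not keep the strand.

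**Figure D4:**
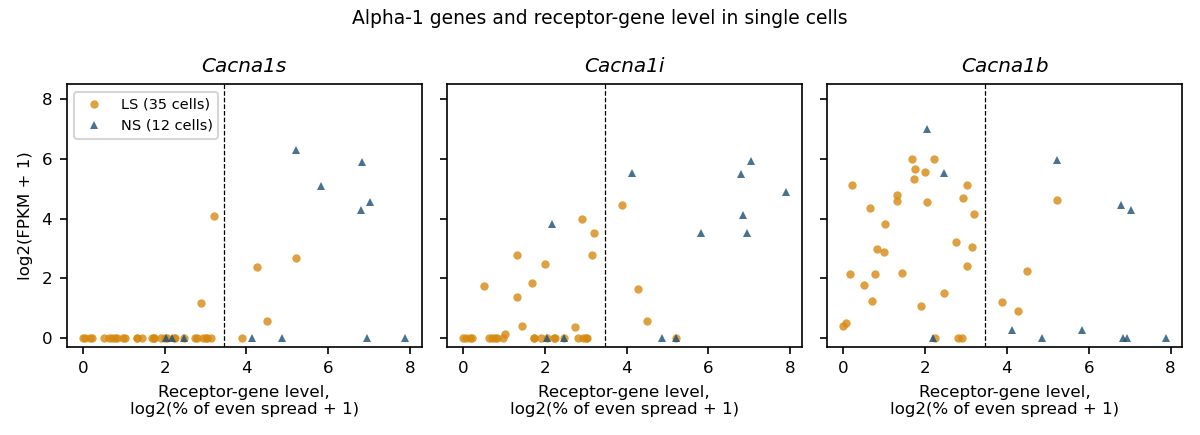
Each point is 1 of the 47 cells (circles LS, triangles NS), with the receptor-gene level as log2(percent + 1) on the x axis, log2(FPKM + 1) of the named gene on the y axis and a dashed line at a level of 10%. Cacna1s and Cacna1i in NS cells lie mostly to the right of the line, whereas the highest NS value of Cacna1b lies to its left and LS values of Cacna1b spread over the left side.

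The Cav3 genes were all called higher in NS cells by their means, but they did so in different ways. Cacna1g, the T-type subunit of thalamic and many cortical neurons, ran from 0 to 61.3 FPKM with a median of 3.51 in LS cells, and from 0 to 244.9 FPKM with a median of 0.111 in NS cells. NS_16, the cell with both GABA and glutamate markers, alone held 83.1% of the NS sum. The means of 8.85 ± 13.4 and 24.6 ± 70.0 FPKM gave a log2 ratio of -1.47, which turned to 0.96 without NS_16 and to 4.98 with medians. It had reads in 28 of 35 LS and 6 of 12 NS neurons.

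Cacna1h, a T-type subunit of sensory neurons and of parts of the forebrain, had a read in 14 of 35 LS and 5 of 12 NS cells. Its highest LS value was 28.02 FPKM and its highest NS value 63.1 FPKM, in NS_13, and 1 NS cell lay above all LS cells. The means were 3.06 ± 7.11 and 10.8 ± 18.9 FPKM, a log2 ratio of -1.83 that stood at -0.99 without NS_13. The shares of cells with a read were close, at 34.5% of LS and 37.5% of NS cells after thinning. Its exons share 158 bases with Tpsg1 on the other strand.

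Cacna1i, the T-type subunit of thalamic reticular neurons with slow currents, was spread over more NS cells than the other Cav3 genes. It ran from 0 to 60.4 FPKM with a median of 11.8 in NS cells and from 0 to 20.8 FPKM with a median of 0 in LS cells. A read was found in 8 of 12 NS cells, all of them at 10.3 FPKM or more, and in 14 of 35 LS cells, and 4 NS cells lay above all LS cells. The means were 2.06 ± 4.62 and 19.1 ± 20.8 FPKM, a log2 ratio of -3.21 that stayed between -3.66 and -2.90 as each cell was left out. After thinning, the expected shares of cells with a read were 34.2% of LS and 62.5% of NS cells. Cacna1i was the leading member in 5 of 12 NS and 1 of 35 LS cells. Of its 1035 NS reads, 90.1% lay in the 9 NS cells with a receptor-gene level of at least 10%, of which 7 had a read. Below that level the mean was 1.58 over 31 LS and 4.34 FPKM over 3 NS neurons, of which NS_14 alone had reads.

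In LS cells the Cav3 genes did not part the marker classes clearly. Cacna1g was 1.09, 29.2, 3.84 and 1.55 FPKM in the GABA-marked and 0 to 61.3 FPKM with a median of 3.86 in the glutamate-marked LS cells, a log2 ratio of 0.04. Cacna1h was 0.677, 3.71, 0 and 0 FPKM against 0 to 28.02 FPKM, a log2 ratio of 1.64 that rose to 3.92 without LS_14 and turned to -0.42 over the LS cells before filtering. Cacna1i had a read in 1 of 4 GABA-marked and 13 of 30 glutamate-marked LS cells.

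Counted over the family, 9 of the 10 members reached 1 FPKM in LS or NS cells, all but Cacna1f. Of these, 2 were called higher in LS cells (Cacna1a and Cacna1e), where 33.8% of all 16760 genes tested were, and 4 were called higher in NS cells (Cacna1g, Cacna1h, Cacna1i and Cacna1s), where 38.9% of all genes were. Read against these shares, neither count sets the members apart. The median log2 ratio was -0.94 over the 9 members and -0.20 over all genes. Only 3 NS cells (NS_13, NS_14 and NS_16) and 31 LS cells had a receptor-gene level under 10%. Between these, 3 of 8 members tested were called higher in LS cells (Cacna1a, Cacna1d and Cacna1e), beside 68.6% of all genes, and 5 higher in NS cells (Cacna1b, Cacna1c, Cacna1g, Cacna1h and Cacna1i), beside 17.1%. The NS values of Cacna1b, Cacna1c, Cacna1g and Cacna1h came there from NS_13 and NS_16, and those of Cacna1i from NS_14.

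Between glutamate-marked and GABA-marked LS cells, 3 of 10 members were called higher in the former (Cacna1d, Cacna1e and Cacna1h), beside 46.2% of 14454 genes, and Cacna1f in the latter, beside 23.2%. The Cacna1f call rests on LS_9, the GABA-marked LS cell with its 17 reads. Within GABA-marked cells, 2 members were called higher in the 4 LS cells (Cacna1a and Cacna1f), beside 42% of 13402 genes, and 7 in the 6 NS cells (all others but Cacna1b), beside 42.5%. A receptor-gene level of at least 10% was found in 4 of these NS and 1 of these LS cells. Of the sums over these NS cells, NS_6 held 100% for Cacna1d and NS_16 96.4% for Cacna1g, while NS_12 held 38.9% for Cacna1i. Of the markers of GABA neuron kinds, Vip had reads in 3 of 4 LS and 0 of 6 NS cells, Sst in 0 of 4 and 1 of 6, and Pvalb in 0 of 4 and 0 of 6. Lamp5 had reads in 1 of 4 and 2 of 6. It also had reads in 29 of 30 glutamate-marked LS cells, so its reads do not tell a GABA neuron kind here. The kind of most GABA-marked NS cells is therefore not known.

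The summed alpha-1 level was 75.03 ± 50.1 over LS and 126.0 ± 121.7 FPKM over NS neurons. It ran from 0.493 to 196.9 FPKM with a median of 70.1 and from 13.02 to 455.5 FPKM with a median of 111.1, so that the ranges overlapped. The log2 ratio was -0.75, and -0.36 without NS_16, the cell at 455.5 FPKM. LS cells nevertheless had reads of more members, 6.20 ± 1.83 of the 10 against 4.25 ± 2.30, and 5.89 ± 1.86 against 3.70 ± 2.55 when thinned to 200000 reads in 35 LS and 8 NS cells.

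The subfamilies took different shares of that sum. Cav2 held 55.3 ± 24.3% of the summed FPKM of an LS cell and 27.5 ± 32.5% of that of an NS cell. Cav3 held 20.8 ± 21.4% and 46.6 ± 32.6%, and Cav1 23.98 ± 18.3% and 25.97 ± 24.9%. The Cav2 difference of 27.8 percentage points stayed between 25.3 and 34.4 as each cell was left out, and it was 12.6 over all 63 cells and 40.4 between 31 LS and 3 NS cells below 10% in receptor-gene level. The Cav3 difference was -25.8 percentage points, -16.7 over all 63 cells and -43.8 under that level. Within LS cells, Cav2 held 54.5 ± 24.5% in glutamate-marked and 66.1 ± 25.1% in GABA-marked cells. In the 6 GABA-marked NS cells it held 26.9 ± 27.4% and Cav3 48.5 ± 27.9%.

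**Figure D5:**
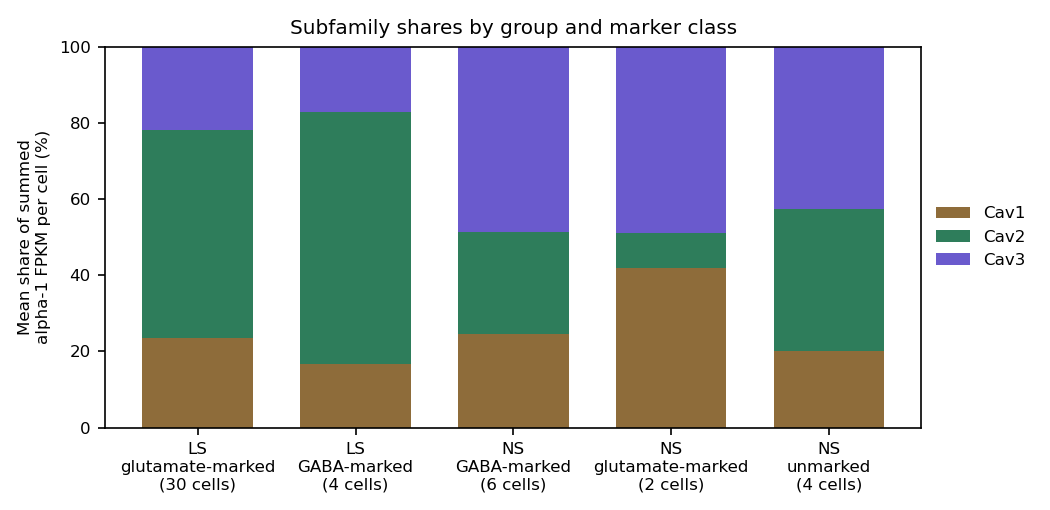
Bars give the mean over cells of the share of each subfamily in the summed alpha-1 FPKM of a cell, in percent, for marker classes of LS and NS cells with the number of cells under each bar. Cav2 holds 54.5% and 66.1% in the LS classes and 26.9% in GABA-marked NS cells, where Cav3 holds 48.5%; the 1 unmarked LS cell is left out and the spread is given in the text.

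The alpha-1 subunits work with alpha2delta subunits, which carry them to the membrane, and beta subunits, which bind them inside the cell, while most gamma-like proteins serve AMPA receptors. Of 16 such genes, 14 reached 1 FPKM, 4 were called higher in LS cells (Cacna2d1, Cacng2, Cacng3 and Cacng4) and 4 higher in NS cells (Cacna2d2, Cacna2d4, Cacng5 and Cacng7), beside the same 33.8% and 38.9% of all genes. Cacng3, an AMPA receptor partner, was the highest in LS cells at 65.5 ± 75.6 FPKM against 1.13 ± 2.65 FPKM in NS cells. Cacna2d1 was at 17.96 ± 15.5 against 1.47 ± 2.39 FPKM, a log2 ratio of 3.61. The beta subunits Cacnb3 (36.03 ± 44.6 against 25.2 ± 69.6 FPKM) and Cacnb1 (16.7 ± 26.2 against 19.5 ± 38.8 FPKM) were not called by their means. Their medians were 18.4 and 6.78 FPKM in LS cells and 0 for both in NS cells. Cacnb3 had a read in 30 of 35 LS and 3 of 12 NS cells, and Cacnb1 in 28 and 4.

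By marker class in LS cells, 6 of the 13 auxiliary genes tested were called higher in glutamate-marked cells and 4 in GABA-marked cells, beside 46.2% and 23.2% of all genes. Cacnb1 was at 14.9 ± 16.4 FPKM in glutamate-marked cells. Over the 4 GABA-marked cells it had 2 reads in total, all in 1 cell. Cacng3 was at 75.3 ± 77.3 FPKM in glutamate-marked against 8.13 ± 16.3 FPKM in GABA-marked cells. Of 8 partners and relatives (Rims1, Rims2, Rimbp2, Cabp1, Stac, Stac2, Stac3 and Nalcn), 7 were tested between LS and NS cells. No partner was called higher in LS cells, and 2 were called higher in NS cells (Stac and Stac2, adaptors of L-type channels), beside 33.8% and 38.9% of all genes. Between glutamate-marked and GABA-marked LS cells 4 of 8 were called higher in the former (Rims1, Rims2, Stac and Stac2) and 2 in the latter (Stac3 and Nalcn), beside 46.2% and 23.2% of all genes.

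Over the 30 glutamate-marked LS cells, the genes most like a member were sought among 6699 genes detected in at least 50% of them. The genes with the highest Spearman correlation to Cacna1e were Grin1 (0.69), Ncam1 (0.66) and Shank2 (0.64), where Grin1 is the shared subunit of NMDA receptors and Shank2 a scaffold of excitatory synapses. Those most like Cacna1b were Cpeb1 (0.73), Nbr1 (0.71) and Hid1 (0.70), and those most like Cacna1a were Frmd4a (0.64), Usp40 (0.60) and Bzrap1 (0.60). Cacna1c was most like Gdpd1, Arl5a and Rbm26 (0.66 to 0.60), and Cacna1d most like Osbp, Gtpbp2 and Hspa12a (0.65 to 0.62). By Pearson correlation of log2(FPKM + 1), Grin1 stayed the first for Cacna1e (0.77), followed by Dnmt3a and Adgrb1. Among the members themselves, the Spearman correlation ran from -0.08 between Cacna1b and Cacna1g to 0.51 between Cacna1a and Cacna1d. These values describe cells that share preparation and differ in depth, and the highest of 6699 correlations over 30 cells are large by selection.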

How the data were processed

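Single neurons were collected in vivo and amplified by Smart-seq2. The authors trimmed reads with AfterQC, aligned them to GRCm38 with STAR 2.5.3a, counted them with featureCounts and made FPKM values with scater, and the deposited FPKM table holds 63 cells and 20183 protein-coding genes that reached 1 FPKM. Its name speaks of counts, but the values are FPKM. Of the per-cell columns 0 stayed unused, and 4 rows with repeated names were left out.

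The filters of the study (cDNA concentration, 1000 genes above 1 FPKM, a mitochondrial share of at most 25%, and joint astrocyte, oligodendrocyte or mixed neuron markers), rebuilt from their description, left 47 cells, fewer than the study retained. The mitochondrial limit left 60 of 60 cells, whereas the study removed cells at this step. The astrocyte markers left 50 of 60 cells. Low-cDNA cells were those the study marks. All 10 members are reported, the auxiliary genes by counts with values for the 4 highest in LS cells, and the 3 genes most like a member (a marker list and the genes most like Cacna1g are not reported here). Members and lists were chosen with earlier results of these data known.

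Whole reads were recovered from FPKM steps with GENCODE M21 exon lengths, or with a length solved from the values (as for Cacna1d, 9242 bases, and Cacna1e, 24813 bases). Of recovered values under 200 reads, 99.9987% were whole within about 0.01 of a read, a tolerance that widened slightly with the read number. Lengths were accepted or solved by this same property, and 2054 unsolved genes were left out, so this percent is not an independent check. Reads per cell ran from 139652 to 2509580. Reads served depth, pooled ratios, thinning and exact 95% intervals, with no molecular identifiers. Exons of Cacna1a, Cacna1d, Cacna1h and Cacna1s overlap genes on the other strand, whose reads cannot be told apart. The scripts were tested on simulated data. Values were computed with scipy 1.17.1, pandas 2.3.3 and numpy 2.4.6 under Python 3.11.15. Alternatives covered the cells kept, medians, pseudocounts of 1 and 0.1, pooled reads, class rules, thinning and each cell left out.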

Additional observations from a re-analysis of the deposited data

Results flagged for a closer look

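In groups of 4 to 10 cells, a cell was marked where its gap to the next cell exceeded the critical share of the range. Over 20 sets of values this marked 8. The critical shares assume normally distributed values, and cell values with many zeros are not so distributed. The sets are also not independent, since the summed level contains its members, so no rate by chance is given. Among the 4 GABA-marked LS cells, Cacna1c stood out in LS_9 at 30.5 FPKM and Cacna1g in LS_14 at 29.2 FPKM. Among the 6 GABA-marked NS cells, NS_16 stood out in the summed alpha-1 level at 455.5 FPKM, in Cacna1a at 5.26 FPKM, in Cacna1b at 127.9 FPKM and in Cacna1g at 244.9 FPKM. In the same set NS_13 stood out in Cacna1h at 63.1 FPKM and NS_6 in Cacna1s at 59.3 FPKM.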

How the results depend on the processing

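No paired analysis was possible because the labels give cells numbers only, with no mouse or date, and no result comes from a test. Of 64 values of single members between LS and NS cells under other settings, 52 kept their direction and 12 turned. Of 94 between the marker classes of LS cells, 80 kept it and 14 turned. Among called members, Cacna1a turned to -0.85 over all 63 cells. Cacna1g turned to 4.98 with medians, 0.55 with mean log2(FPKM + 1), 1.54 with mean log2(FPKM + 0.1) and ran from -1.75 to 0.96 as cells were left out, the latter without NS_16. Between marker classes Cacna1d turned to -1.36 with medians, and Cacna1h to -0.42 over all cells and -0.063 with mean log2(FPKM + 0.1). The count of members higher in LS cells went from 2 to 1 over all 63 cells and to 6 with medians or log2(FPKM + 0.1), and the count higher in NS cells from 4 to 1 with medians and to 2 with log2(FPKM + 1). With each cell left out in turn these counts ran from 2 to 3 and from 3 to 5. The shares of all genes past 2-fold were not computed under these settings, so these counts cannot be read as a result about the members. The summed level kept its direction, from -1.52 with a receptor-gene level under 10% to -0.46 with pooled reads, and from -0.86 to -0.36 as cells were left out. Between marker classes it ran from 0.09 to 0.88, and from 0.13 to 0.57 as cells were left out. The difference in members with a read ran from 1.59 to 2.19 when thinned or counted from 1 FPKM, was 2.63 with a receptor-gene level under 10% (a setting chosen after seeing the data), and ran from 1.65 to 2.29 as cells were left out. The share differences, in percentage points, ran as cells were left out from -4.36 to 2.30 for Cav1, from 25.3 to 34.4 for Cav2 and from -30.0 to -20.9 for Cav3. With a receptor-gene level under 10% they were 3.39, 40.4 and -43.8, and over all 63 cells 4.07, 12.6 and -16.7. Cacna1f between LS and NS cells gave no ratio, since no NS cell had a read, and the cause of the turns was not tested. With 12 NS cells, a gene without a read may still have one in up to 26.5% of such cells by counting alone, which says nothing of cells that express it without a read.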
